A study of Mus musculus with 16 samples.

Results

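A set of 10 genes known from megakaryocytes and platelets was followed through bone marrow cells of wild-type and Tet2-deficient mice at low and at ambient oxygen. The genes were Pf4, Itga2b, Gp5, Gp9, Ppbp, Clec1b, Selp, Thbs1, Mmrn1 and Rap1b, chosen by symbol as known genes of the lineage. All 10 were among the 6288 genes of the deposited table, and all 10 passed the filter on low values that left 6110 genes for testing. Bulk RNA sequencing was done on CD45-positive marrow cells of C57Bl/6J wild-type (WT) mice and Tet2-/- mice (Tet2-deficient here) aged 3 to 4 months, of both sexes. Lineage depletion and positive selection had enriched them for LSK cells (no lineage markers, Kit and Sca1 present), which include haematopoietic stem cells and multipotent progenitors. All marrow, controls included, was harvested in a chamber at 3% oxygen and 5% CO2, so no group was free of that handling. The enriched cells were divided: some stayed at 3% oxygen (physioxia) and the rest spent 6 hours in room air (21% oxygen) before their RNA was taken. Each genotype thus had an air group and a physioxia group, 4 in all, of 4 libraries numbered 1 to 4 as in the table. The labels call them matched biological replicates but do not say how many animals went into each, so the p-values measure the spread between these samples. The main fit treated all 16 libraries as separate samples, although the air and physioxia libraries came from divided cells. The labels name no promoter or Cre for the Tet2 allele, and the deleted part of the gene is not given in the sources used here.

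Megakaryocytes are the large marrow cells that shed platelets. They arise from stem cells through progenitors that share a stage with the erythroid lineage, and some long-term stem cells already carry megakaryocyte transcripts such as Itga2b, Pf4 and Selp. The proteins fall into surface receptors that bind matrix and clotting factors, alpha granule cargo that is packed for release, and signalling proteins that switch platelet integrins on. Tet2 oxidises methylated cytosine and is often mutated in clonal haematopoiesis. In bulk RNA, fewer cells of a type and less of an RNA per cell cannot be told apart.

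Values are normalized counts, that is, reads per gene divided by a size factor for each library. The table held between 7.77 M and 15.7 M reads per library. Tet2 RNA itself was lower in Tet2-deficient cells in air, with a log2 difference of -0.61 ± 0.14 SE (limma adjusted p = 0.00223), and by a like amount in physioxia (-0.59 ± 0.14, adjusted p = 0.00267). Reads from exons that were not deleted enter this value, so it checks the genotype labels only in part. Kit, the receptor used in the enrichment, averaged 3234 to 6737 normalized counts in the groups and was itself higher in Tet2-deficient cells (0.71 ± 0.18 in air and 1.04 ± 0.18 in physioxia), while Ptprc (CD45) and Ly6a (Sca1) were not analysed here. Of 12 defining megakaryocyte markers, 8 were in the table, and Gp1ba, Gp1bb, Vwf and Itgb3 were not analysed here. How the table's genes were chosen is not given in the sources used here. In a DESeq2 fit of the recovered reads, 97.9% of tested genes had a smallest unadjusted p below 0.05 over the 4 group comparisons, and so did all 10 genes. Shares of genes passing a test are therefore shares of a set in which nearly every gene had such a p.

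The 10 genes did not behave as a block: between genotypes some went up and others down, in both oxygen conditions. In air, 4 of the 10 were higher in Tet2-deficient cells (Gp5, Gp9, Selp and Mmrn1), 3 were lower (Pf4, Itga2b and Clec1b), and Ppbp, Thbs1 and Rap1b did not pass. A gene passed at a Benjamini-Hochberg adjusted limma p under 0.05 over all 6110 genes. Of all tested genes 79.5% passed in that comparison, 42.1% higher and 37.4% lower, so 7 of 10 is near the background. The groups did not overlap for 3 of the 10 (Gp9, Selp and Mmrn1), against 70.6% of all tested genes. In physioxia, 2 of the 10 were higher (Selp and Mmrn1) and 4 lower (Pf4, Itga2b, Clec1b and Rap1b). The background was 69.4% passing, 35.9% higher and 33.6% lower, again close to 6 of 10. The groups did not overlap for 4 of the 10 (Clec1b, Selp, Mmrn1 and Rap1b), against 57.6% of all tested genes. The median log2 difference over the 10 genes was -0.34 in air and -0.79 in physioxia, beside 0.24 and 0.06 over all tested genes. Those 5 genes that passed in both oxygen conditions had the same direction in both: Selp and Mmrn1 higher, and Pf4, Itga2b and Clec1b lower. Because the cells were divided between the conditions, physioxia is not a separate repeat of the genotype difference in air. The share of all tested genes with the same direction in both was not computed. Leaving out libraries 3 and 4 of Tet2-deficient air gave 3 passing genes in air (Gp5, Selp and Mmrn1). Leaving out libraries 1 and 2 of WT air gave 4 (those and Pf4), both choices made after seeing the data. Taking all annotated genes absent from the table as unchanged ended the calls of Pf4 (adjusted p = 0.0873), Itga2b (0.412), Gp5 (0.0521) and Clec1b (0.422) in air. In physioxia it ended those of Pf4 (0.115) and Itga2b (0.15).

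**Figure D1:**
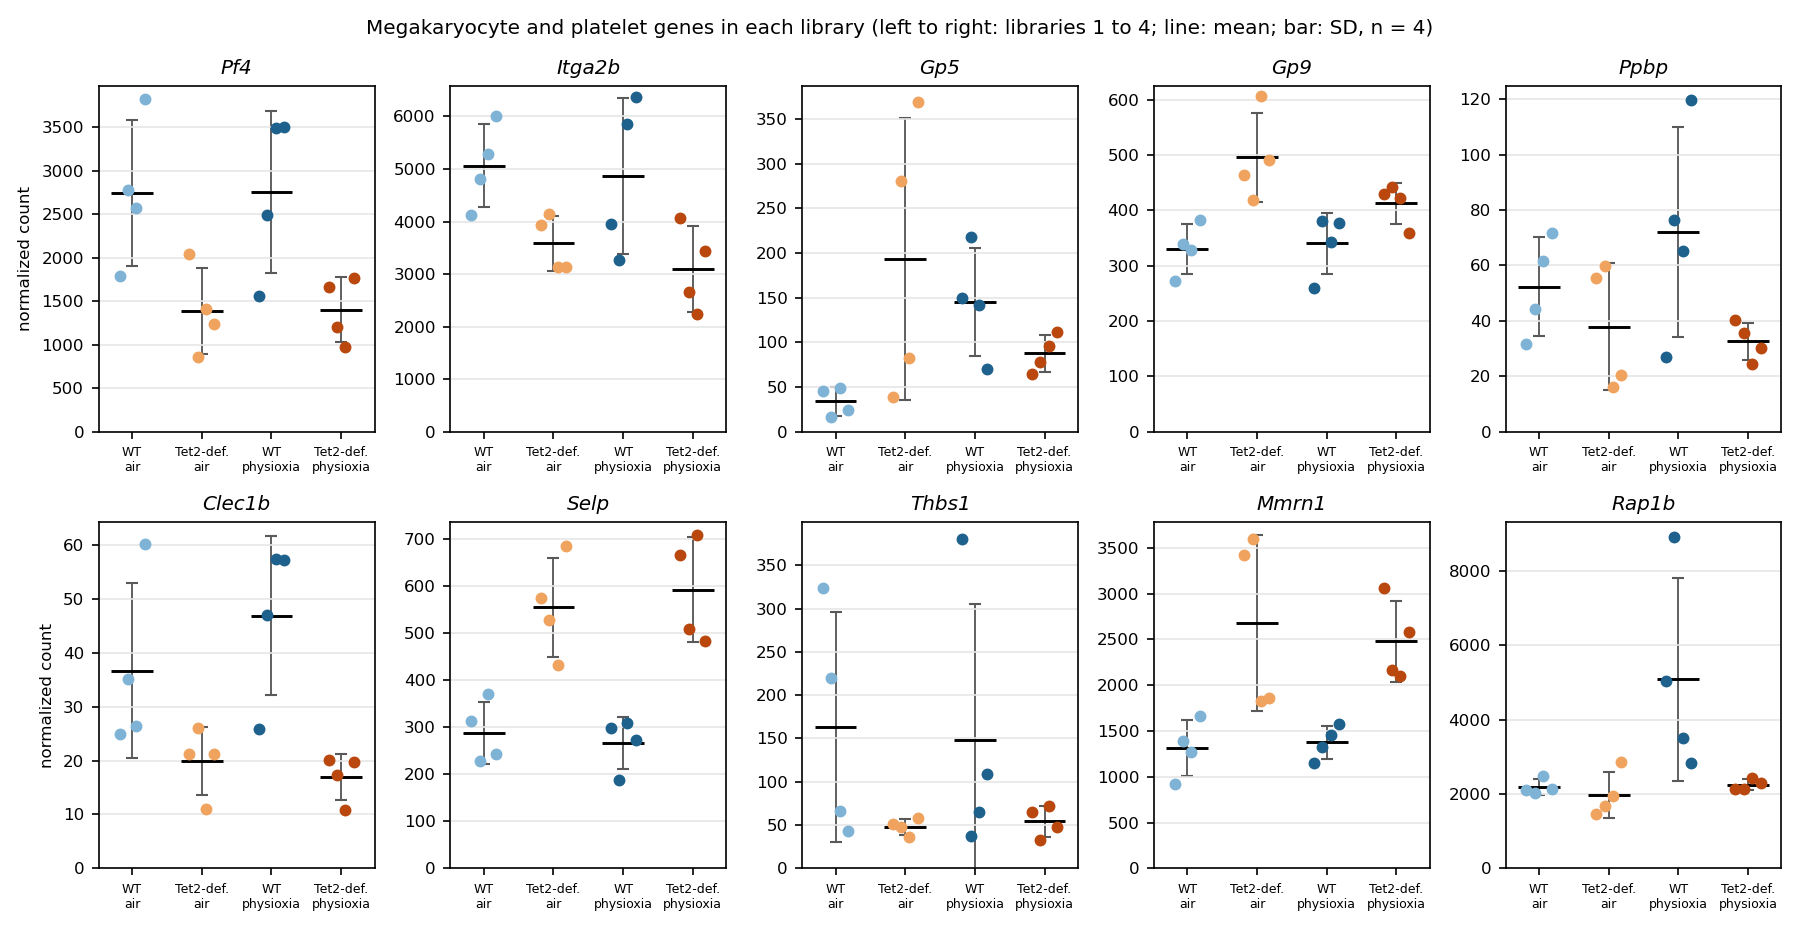
Normalized counts (vertical axis, linear, from 0) of the 10 genes in every library of the 4 groups on the horizontal axis; points are libraries 1 to 4 from left to right, lines are means and bars are SDs, n = 4, with the bar of Thbs1 in WT physioxia ending at 0. Selp and Mmrn1 lie higher in all Tet2-deficient than in all WT libraries, Pf4 and Itga2b lie mostly lower, and Gp5 is lowest in WT air.

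The sequence just before the start of each gene is shown for 6 genes that stand for the patterns: Selp and Mmrn1 (higher in Tet2-deficient cells), Pf4, Itga2b and Clec1b (lower), and Gp5 (the widest range). The 250 bases upstream of the RefSeq start are printed 5′ to 3′ on the strand of the gene, from RefSeq's GRCm38.p6 annotation. Capitals mark matches on either strand to short words bound by factors of the lineage: for GATA factors AGATAA together with AGATAG, as well as TGATAA together with TGATAG, for ETS factors CGGAAG together with AGGAAG, and for RUNX factors TGTGGT together with TGCGGT. A match is a run of letters, not a bound site.
Selp: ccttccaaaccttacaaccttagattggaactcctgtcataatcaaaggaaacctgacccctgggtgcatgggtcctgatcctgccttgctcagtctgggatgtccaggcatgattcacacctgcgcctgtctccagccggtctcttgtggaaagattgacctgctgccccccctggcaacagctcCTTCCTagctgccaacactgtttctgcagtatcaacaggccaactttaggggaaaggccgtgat
Mmrn1: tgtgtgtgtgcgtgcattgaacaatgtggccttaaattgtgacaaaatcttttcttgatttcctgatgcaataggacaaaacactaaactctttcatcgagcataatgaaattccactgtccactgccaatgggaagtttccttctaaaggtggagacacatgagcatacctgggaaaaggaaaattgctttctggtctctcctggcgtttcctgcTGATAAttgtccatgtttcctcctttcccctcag
Pf4: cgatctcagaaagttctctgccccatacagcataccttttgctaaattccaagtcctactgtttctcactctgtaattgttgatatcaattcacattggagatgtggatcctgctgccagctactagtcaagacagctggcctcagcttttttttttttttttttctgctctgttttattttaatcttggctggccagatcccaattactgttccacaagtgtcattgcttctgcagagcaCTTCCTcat
Itga2b: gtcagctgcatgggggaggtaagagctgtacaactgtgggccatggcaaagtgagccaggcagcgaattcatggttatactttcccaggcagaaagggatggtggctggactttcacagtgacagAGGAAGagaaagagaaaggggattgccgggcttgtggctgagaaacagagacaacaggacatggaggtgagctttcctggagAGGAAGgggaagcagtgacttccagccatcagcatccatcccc
Clec1b: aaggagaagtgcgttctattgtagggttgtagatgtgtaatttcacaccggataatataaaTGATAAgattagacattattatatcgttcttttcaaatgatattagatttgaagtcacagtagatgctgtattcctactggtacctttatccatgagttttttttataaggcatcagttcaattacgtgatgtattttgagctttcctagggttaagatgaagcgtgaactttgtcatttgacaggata
Gp5: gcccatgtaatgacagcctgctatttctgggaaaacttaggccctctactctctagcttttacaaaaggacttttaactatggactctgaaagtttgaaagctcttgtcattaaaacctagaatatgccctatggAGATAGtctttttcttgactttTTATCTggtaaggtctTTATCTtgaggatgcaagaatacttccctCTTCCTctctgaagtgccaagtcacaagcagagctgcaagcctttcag
They lie at chr1:164115014-164115263 (Selp, plus strand), chr6:60944067-60944316 (Mmrn1, plus), chr5:90772185-90772434 (Pf4, plus), chr11:102469884-102470133 (Itga2b, minus), chr6:129397047-129397296 (Clec1b, plus) and chr16:30310782-30311031 (Gp5, minus). The RefSeq start used for Mmrn1 lies inside the GENCODE gene, which begins upstream at base 60924976. Most of the Itga2b window also lies inside its GENCODE gene, which begins at base 102470122 on the minus strand with an exon of a noncoding transcript. Of the 10 genes 9 were matched in the promoter table, and Thbs1 was not. GATA words were found in 3 of 9 promoters: Gp5 with 3 matches, at 115, 93 and 77 bases before the start, Clec1b at 189 and Mmrn1 at 34. ETS words were found in 6 of 9 (Pf4, Itga2b, Gp5, Gp9, Selp and Rap1b), and RUNX words in 2 of 9 (Gp9 and Rap1b). In the same window, 27.1% of all 27025 RefSeq promoters held a GATA word, 39% an ETS word and 18.7% a RUNX word. The groups of genes did not sort by word: Mmrn1, which was higher in Tet2-deficient cells, and Clec1b, which was lower, each had a single GATA match, and Selp, Pf4 and Itga2b shared ETS words.

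Among the surface receptors, Selp showed the most regular genotype difference. Selp encodes P-selectin, an adhesion receptor kept in alpha granules and brought to the surface on activation (chromosome 1, 164115264 to 164150026, GRCm38; ENSMUSG00000026580). Its normalized counts in libraries 1 to 4 were 313, 227, 370.0 and 244 in WT air, beside 575, 529, 432 and 685 in Tet2-deficient air. In physioxia they were 299, 187, 308 and 273 in WT and 666, 509.9, 709 and 484 in Tet2-deficient cells. Every Tet2-deficient library stood above every WT library. The ratio of means was 1.92 in air (log2 difference 0.95 ± 0.21 SE, adjusted p = 0.00129) and 2.22 in physioxia (1.16 ± 0.21, adjusted p = 0.0003). Both calls held in all 29 alternative settings run. The antisense gene Gm16587 and the noncoding gene Gm16548 overlap Selp on the other strand, and whether the counting used strand is not given in the sources used here.

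Itga2b encodes the integrin alpha IIb chain (CD41), which pairs with integrin beta 3 as the platelet fibrinogen receptor (chromosome 11, 102453297 to 102470122, minus strand; ENSMUSG00000034664). It was lower in Tet2-deficient cells. In WT air the libraries read 4132, 4812, 5287 and 6007, and in Tet2-deficient air 3926, 4144, 3132 and 3128.5. In WT physioxia they read 3955, 3278, 5857 and 6372, and in Tet2-deficient physioxia 4061, 2653, 2244 and 3436. The groups overlapped in both conditions: Tet2-deficient air library 2 stood just above WT air library 1. The log2 difference was -0.50 ± 0.22 SE in air (adjusted p = 0.0453) and -0.64 ± 0.22 in physioxia (adjusted p = 0.0165). The call in air lay at the threshold and was lost under quantile normalization (-0.37, adjusted p = 0.152), edgeR (0.0532) and the replicate block (0.054). It was also lost without WT air library 2, 3 or 4 (adjusted p = 0.0645, 0.0851 and 0.118), Tet2-deficient air library 3 or 4 (0.105 and 0.104) or Tet2-deficient physioxia library 4 (0.0501). The call in physioxia was lost under quantile normalization (0.0821), and without WT library 3 (0.0558), WT library 4 (0.06) or Tet2-deficient library 3 (0.0626) of that condition.

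Gp9 and Gp5 encode subunits of the platelet receptor for von Willebrand factor. Gp9, the small subunit needed to bring the complex to the surface (chromosome 6, 87778072 to 87779768; ENSMUSG00000030054), was higher in Tet2-deficient cells in air. It read 273, 339, 328 and 383 in WT air, beside 465, 419, 607 and 491 in Tet2-deficient air. In physioxia it read 261, 381, 343 and 376 in WT and 429, 442, 423 and 359 in Tet2-deficient cells. The groups were apart in air and overlapped in physioxia through Tet2-deficient library 4. The log2 difference was 0.58 ± 0.16 SE in air (adjusted p = 0.00511) and 0.29 ± 0.16 in physioxia, which did not pass (adjusted p = 0.109). Without Tet2-deficient air libraries 3 and 4 the air difference was 0.43 (adjusted p = 0.0725), and without WT air libraries 1 and 2 it was 0.47 (adjusted p = 0.0524). The difference between the air and physioxia differences was -0.29 ± 0.22 (adjusted p = 0.671).

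Gp5, the subunit of that complex that thrombin cleaves (chromosome 16, 30307685 to 30310779, minus strand; ENSMUSG00000047953), varied most of the 10, with a 21.57-fold span between its lowest and highest library. Its promoter above was the only one of the 9 with more than 1 GATA match. It read 46.1, 17.1, 48.5 and 23.9 in WT air, on 17 to 48 reads per library. In Tet2-deficient air it read 38.5, 280.5, 83.1 and 369, so libraries 2 and 4 were high and library 1 lay inside the WT range. In WT physioxia it read 149.8, 218, 142 and 70.0, all above every WT air library. In Tet2-deficient physioxia it read 65.0, 77.8, 96.5 and 112. The log2 difference between genotypes was 2.09 ± 0.58 SE in air (adjusted p = 0.00573) and -0.64 ± 0.58 in physioxia (adjusted p = 0.333). WT cells had more Gp5 RNA in physioxia than in air, by 2.08 ± 0.58 (adjusted p = 0.0451). The low level in WT air thus enters both of these comparisons. The air difference was 2.69 without Tet2-deficient air library 1 (adjusted p = 0.0005) and 1.61 without Tet2-deficient air library 4 (adjusted p = 0.0215).

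Clec1b encodes CLEC-2, the platelet receptor for podoplanin (chromosome 6, 129397297 to 129409335; ENSMUSG00000030159). It was scarce, with 8 to 67 reads per library, and lower in Tet2-deficient cells. It read 25.0, 35.2, 26.4 and 60.3 in the libraries of WT air, then 21.3, 26, 11 and 21.2 across Tet2-deficient air. It read 26, 47, 57.4 and 57.2 in WT physioxia and 20.1, 17.3, 10.9 and 19.8 in Tet2-deficient physioxia. In physioxia every WT library stood above every Tet2-deficient one, while in air the groups overlapped. The log2 difference was -0.83 ± 0.36 SE in air (adjusted p = 0.0465) and -1.38 ± 0.36 in physioxia (adjusted p = 0.00413). The physioxia call held in all 28 alternatives that tested the gene. The air call was lost with only the 2 groups compared (adjusted p = 0.0612) and without any of 9 single libraries. These were WT air 2 and 4 (0.0778 and 0.16), Tet2-deficient air 1, 3 and 4 (0.059, 0.153 and 0.063), and in physioxia WT 3 (0.0515) and Tet2-deficient 1, 2 and 4 (0.0522, 0.053 and 0.0522). Clec9a, which is not in the table, overlaps the 3′ end of Clec1b on the same strand, so reads there could be split.

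Among the alpha granule cargo, Mmrn1 and Pf4 moved in opposite directions. Mmrn1 encodes multimerin 1, which binds coagulation factor V in the granule (chromosome 6, 60924976 to 60989378; ENSMUSG00000054641). It read 924, 1394, 1269 and 1668.5 in WT air, beside 3423, 3596, 1829 and 1862 in Tet2-deficient air. In physioxia it read 1147, 1326, 1456 and 1571 in WT and 3064, 2169, 2097 and 2585 in Tet2-deficient cells. All Tet2-deficient libraries were higher than all WT libraries. The ratio of means was 2.04 in air (log2 difference 0.99 ± 0.23 SE, adjusted p = 0.00213) and 1.8 in physioxia (0.84 ± 0.23, adjusted p = 0.00534). Both calls held in all 29 alternative settings. Within Tet2-deficient air, libraries 3 and 4 were lowest for Mmrn1, Itga2b, Ppbp and, by a small margin, Clec1b. The other genes differed: libraries 3 and 4 were highest for Gp9 and Rap1b, while Pf4 was lowest in library 2. Selp and Thbs1 were lowest in library 3 and highest in library 4, where Gp5 was also highest. Libraries 3 and 4 were highest for the erythroid markers, whose mean log2 level was 11.75, 11.65, 13.81 and 12.51 in libraries 1 to 4. The part of erythroid cells in these values was not tested.

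Pf4 encodes platelet factor 4, a chemokine that is among the most abundant granule proteins (chromosome 5, 90772435 to 90773383; ENSMUSG00000029373). It read 1787, 2781, 2570.2 and 3825 in WT air, beside 2048.5, 863, 1407 and 1239 in Tet2-deficient air. In physioxia it read 1559, 2489, 3486.5 and 3505 in WT and 1663, 1209.9, 973 and 1769.6 in Tet2-deficient cells. In both conditions WT library 1 was the lowest of its group and lay within the Tet2-deficient range, so the groups overlapped. The mean was 1.97-fold lower in Tet2-deficient cells in air (log2 difference -1.0 ± 0.30 SE, adjusted p = 0.00961) and 1.97-fold lower in physioxia (-0.94 ± 0.30, adjusted p = 0.0127). Without Tet2-deficient air libraries 3 and 4 the adjusted p in air was 0.0505.

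Ppbp, which lies 2371 bases upstream of Pf4 on the same strand and encodes the precursor of another platelet chemokine (chromosome 5, 90768518 to 90770063; ENSMUSG00000029372), did not pass in either comparison. It read 31.7, 44.3, 61.7 and 71.8 in WT air, beside 55.7, 59.9, 16 and 20.3 in Tet2-deficient air, where libraries 1 and 2 were as high as WT. In physioxia it read 27.1, 76.5, 65.2 and 119.5 in WT and 40.2, 35.6, 24.5 and 30.1 in Tet2-deficient cells. The log2 difference was -0.61 ± 0.47 SE in air (adjusted p = 0.225) and -0.97 ± 0.47 in physioxia (adjusted p = 0.0749). The physioxia difference passed with edgeR (-1.15, adjusted p = 0.0404) and DESeq2 (-1.16, adjusted p = 0.0262) on the recovered reads, and without WT physioxia library 1 (-1.37, adjusted p = 0.0153).

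Thbs1 encodes thrombospondin 1, an adhesive glycoprotein of alpha granules that monocytes and macrophages also make (chromosome 2, 118111876 to 118127133; ENSMUSG00000040152). It read 324, 220.4, 66.1 and 43.1 in WT air, beside 50.7, 47.8, 36.0 and 57.6 in Tet2-deficient air. In physioxia it read 379.9, 37.8, 65.2 and 108 in WT and 65.0, 32.4, 72.0 and 47.3 in Tet2-deficient cells. WT air libraries 1 and 2 and WT physioxia library 1 were the highest. In air WT library 4 lay among the Tet2-deficient libraries and library 3 just above them, and in physioxia WT libraries 2 and 3 lay among them and library 4 above. The log2 difference was -1.32 ± 0.64 SE in air (adjusted p = 0.068) and -0.95 ± 0.64 in physioxia (adjusted p = 0.197), neither of which passed. The air difference passed with DESeq2 (-1.80, adjusted p = 0.00601), edgeR (-1.77, adjusted p = 0.0251), quantile normalization (-1.59, adjusted p = 0.031) and the replicate block (adjusted p = 0.0484). It also passed without WT air library 3 or 4 (adjusted p = 0.0492 and 0.0233) or WT physioxia library 1 (0.0346). In the other direction, it was -0.84 without WT air library 1 (adjusted p = 0.227), -1.03 without WT air library 2 (adjusted p = 0.176) and -0.17 without both (adjusted p = 0.814), the last chosen after seeing the data. The physioxia difference passed with DESeq2 (-1.44, adjusted p = 0.0281) and was -0.31 without WT physioxia library 1 (adjusted p = 0.646).

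The WT libraries with high Thbs1 were also rich in markers of monocytes and macrophages, T and NK cells, and neutrophils. This did not hold for the basophil and mast cell list. Its mean log2 level was 11.03, 10.78, 11.3 and 11.1 in WT air libraries 1 to 4. In WT physioxia it was 10.82, 11.52, 11.29 and 11.23, lowest in library 1. The mean log2 level of 7 monocyte and macrophage markers was 9.89, 9.79, 8.95 and 9.06 in WT air libraries 1 to 4, and 8.29 to 8.46 in Tet2-deficient air. In WT physioxia it was 9.83, 9.55, 9.21 and 9.03, and 7.9 to 8.37 in Tet2-deficient physioxia. Their summed normalized counts were 10560 to 14990 in WT air, 4773 to 5530 in Tet2-deficient air, 10230 to 14390 in WT physioxia and 4241 to 5662 in Tet2-deficient physioxia. The lists held 16 monocyte and macrophage, 11 T and NK cell and 13 neutrophil markers, of which 7, 10 and 9 were measured. Of all tested genes 37.4% were lower in Tet2-deficient cells in air and 33.6% in physioxia. Of 7 monocyte and macrophage markers, 6 were lower in Tet2-deficient cells in air and 4 in physioxia, and 0 were higher. The 10 T and NK cell markers stood at 8.07, 7.62, 6.79 and 6.62 in WT air and 8.28, 7.83, 6.68 and 6.34 in WT physioxia, and at 4.99 to 5.65 and 4.63 to 5.79 in the Tet2-deficient groups. Of these 10 markers, 10 were lower in Tet2-deficient cells in air and 9 in physioxia, with median log2 differences of -1.97 and -2.24. The 9 neutrophil markers stood at 9.21, 8.48, 7.72 and 7.38 in WT air, 5.58 to 6.55 in Tet2-deficient air, 8.56 to 9.45 in WT physioxia and 6.23 to 6.87 in Tet2-deficient physioxia. In both conditions 8 of the 9 were lower and 0 higher, with medians of -2.37 in air and -2.51 in physioxia. No measured marker of these lists was at 0 in every library of a group, but the monocyte marker C1qc was at 0 in WT air library 3 and Tet2-deficient physioxia library 1, and the T cell marker Trac in Tet2-deficient physioxia library 3. In WT physioxia only library 1 had both high Thbs1 and the highest levels of these markers. Library 2 of that group had low Thbs1 (37.8) with high monocyte (9.55) and T cell (7.83) levels. Over libraries 2, 3 and 4 Thbs1 rose, from 37.8 to 65.2 and 108. The levels of the monocyte, T cell and neutrophil lists fell over the same libraries (neutrophil 8.9, 8.68 and 8.56). The part of monocytes, neutrophils or T cells in the Thbs1 values was not tested.

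**Figure D2:**
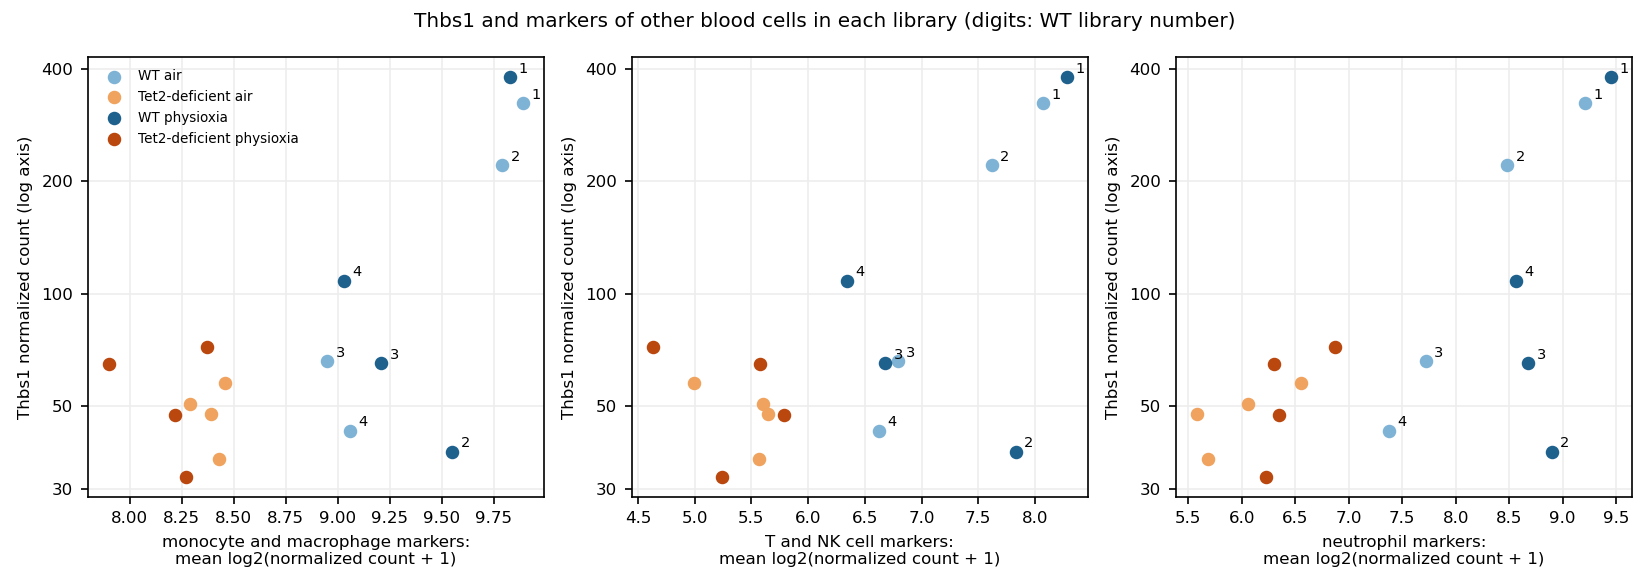
Thbs1 normalized count (vertical axis, log scale) against the mean log2 level of monocyte and macrophage, T and NK cell, and neutrophil markers (horizontal axes) in each of the 16 libraries; colours are groups and digits are WT library numbers. The 3 libraries with Thbs1 above 200 are WT air 1 and 2 and WT physioxia 1, and the Tet2-deficient libraries lie between 32.4 and 72.0.

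Rap1b was the only signalling gene of the 10. It encodes a small GTPase that switches platelet integrins on through talin and that many other blood cells express (chromosome 10, 117813871 to 117846035, minus strand; ENSMUSG00000052681). It read 2103, 2032, 2489.8 and 2121 in WT air, beside 1464, 1665, 1938.5 and 2864 in Tet2-deficient air. In WT physioxia it read 5049.7, 8927, 3512 and 2837, and in Tet2-deficient physioxia 2137, 2144, 2437 and 2298. WT physioxia stood above the other 3 groups, apart from Tet2-deficient air library 4, and library 2 of that group was the highest by far. The genotype difference was -0.18 ± 0.27 SE in air (adjusted p = 0.516) and -1.03 ± 0.27 in physioxia (adjusted p = 0.00408). The physioxia call held in all 29 alternatives, with log2 differences from -1.27 to -0.71. In WT physioxia library 2 the 10 most abundant genes took 20.3% of the reads, against 12.3% to 17.3% in the other libraries. The part of this composition in the Rap1b value was not tested. The WT physioxia libraries enter both the genotype comparison in physioxia and the oxygen comparison of WT cells.

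Between oxygen conditions, few of the 10 genes differed. In WT cells, Gp5 and Rap1b were higher in physioxia, none was lower, and the WT groups did not overlap for either gene. Over all tested genes 5.76% passed, 4.91% higher and 0.851% lower, and 11% had groups that did not overlap. Mean Gp5 was 144.9 ± 60.4 (SD, n = 4) in WT physioxia and 33.9 ± 15.7 in WT air, a ratio of 4.27. Mean Rap1b was 5081 ± 2726 against 2186 ± 206, a ratio of 2.32 (log2 difference 1.08 ± 0.27 SE, adjusted p = 0.0267). The other 8 genes differed by -0.25 to 0.37 on the log2 scale (adjusted p from 0.619 to 0.993), and the median over the 10 was 0.06, against 0.01 over all tested genes. Both still passed with a replicate block, which pairs same-numbered WT libraries. In the main fit, which does not pair them, the calls rested on single libraries and settings. Gp5 did not pass with a pseudocount of 10 (adjusted p = 0.0554), Rap1b did not with only the 2 groups in the fit (adjusted p = 0.111), and neither did with absent genes taken as unchanged (0.41 and 0.243). Both calls were lost without WT air library 1 (adjusted p = 0.0563 for Gp5 and 0.0593 for Rap1b), WT air library 2 (0.139 and 0.0779), WT air library 4 (0.124 and 0.0788), WT physioxia library 1 (0.107 and 0.0831) or WT physioxia library 2 (0.145 and 0.0616). Gp5 alone was lost without WT physioxia library 3 (0.0917) or any of Tet2-deficient physioxia libraries 1 to 4 (0.0579, 0.0595, 0.0623 and 0.0581). Without WT physioxia library 2 the Rap1b log2 difference was 0.76.

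In Tet2-deficient cells none of the 10 genes passed between physioxia and air by limma, as none of the 6110 did (0.0%), and at an unadjusted p under 0.05 there were also 0 of 10 and 280 of all genes. With DESeq2 8 of all genes passed and with edgeR 0, none of them among the 10. The groups overlapped for all 10, against 3.75% of all tested genes whose groups did not. Log2 differences ran from -0.65 (Gp5, ± 0.58 SE) to 0.23 (Rap1b, ± 0.27), with a median of -0.04 against 0.0 over all genes.

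**Figure D3:**
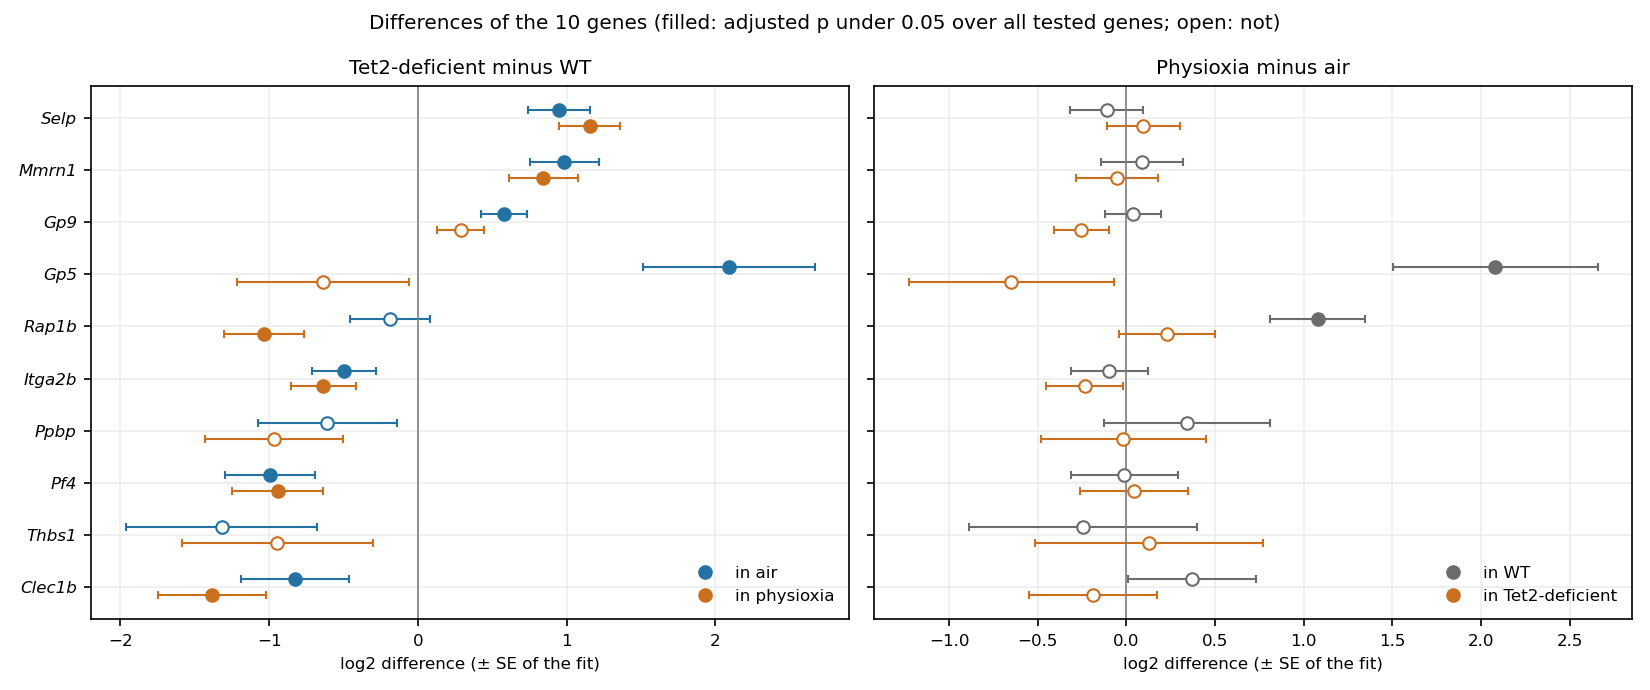
Log2 differences of the 10 genes (horizontal axis, points with SE of the fit) between genotypes in air and in physioxia (left) and between oxygen conditions in each genotype (right); filled points passed an adjusted p under 0.05 over 6110 genes. Selp and Mmrn1 are right of 0 and Pf4, Itga2b and Clec1b left of 0 in both genotype comparisons, and in the oxygen comparisons Gp5 and Rap1b in WT cells are the filled points.

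Whether the oxygen difference itself depended on genotype was tested as an interaction, the oxygen difference in Tet2-deficient cells minus that in WT cells. None of the 10 genes passed by limma (0.0% of all tested genes), while 2 of the 10 and 546 of all had an unadjusted p under 0.05. Those 2 were Gp5, at -2.73 ± 0.82 SE, and Rap1b, at -0.85 ± 0.38, both with a limma adjusted p of 0.552. DESeq2 on the recovered reads passed 11 genes, Gp5 among them (-3.17, adjusted p = 0.0265), and edgeR passed 0. The median over the 10 genes was -0.22, against -0.02 over all genes. That Gp5 and Rap1b passed between oxygen conditions in WT cells and not in Tet2-deficient cells is therefore not shown to be a difference between genotypes by the limma test.

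Ratios of 2 genes within a library do not depend on its size factor and show how far the lineage genes moved apart. The pairs were chosen after seeing the values, so the ratios are a description. Mmrn1 over Pf4 was 0.517, 0.501, 0.494 and 0.436 in WT air, beside 1.67, 4.17, 1.3 and 1.5 in Tet2-deficient air. In physioxia it was 0.736, 0.533, 0.418 and 0.448 in WT and 1.84, 1.79, 2.16 and 1.46 in Tet2-deficient cells. The ratio was under 1 in all 8 WT libraries and over 1 in all 8 Tet2-deficient ones. The genes differ in length, so the ratio is read between libraries only. Selp over Itga2b was 0.0406 to 0.0758 in WT air, 0.0429 to 0.0755 in WT physioxia, 0.128 to 0.219 in Tet2-deficient air and 0.141 to 0.316 in Tet2-deficient physioxia, again without overlap. Itga2b over Pf4, 2 genes that were both lower, was 1.57 to 2.31 in WT air and 1.92 to 4.8 in Tet2-deficient air. It was 1.32 to 2.54 and 1.94 to 2.44 in physioxia, so the genotypes overlapped.

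**Figure D4:**
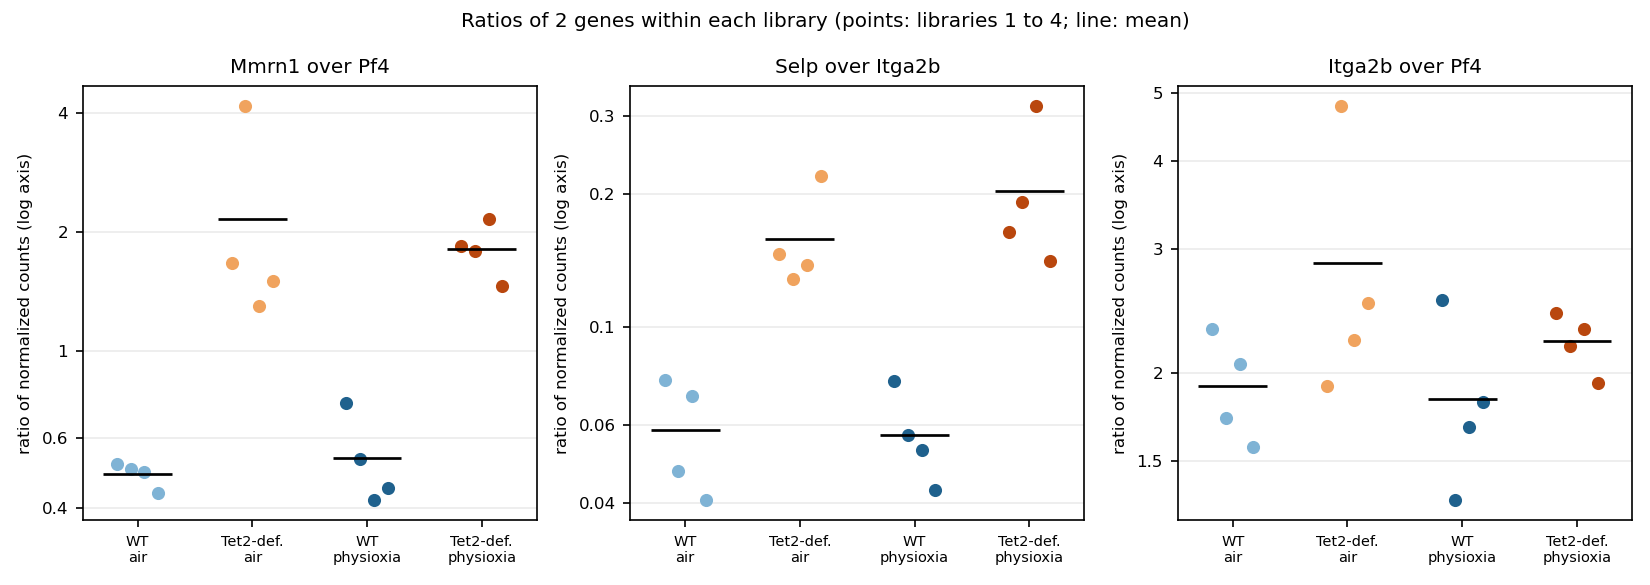
Ratio of the normalized counts of 2 genes within each library (vertical axes, log scale) in the 4 groups; points are libraries 1 to 4 and lines are means. Mmrn1 over Pf4 and Selp over Itga2b lie higher in all 8 Tet2-deficient libraries than in all 8 WT libraries, while Itga2b over Pf4 overlaps.

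Per kilobase of annotated exon, over all 16 libraries, Pf4 was highest at 2880 ± 1300 (SD) normalized counts, then Rap1b (999 ± 632), Itga2b (762 ± 224), Gp9 (449 ± 96.9) and Mmrn1 (334 ± 139). Selp (96.5 ± 39.1), Gp5 (52.2 ± 44.6), Ppbp (45.1 ± 24.8), Thbs1 (17.0 ± 17.7) and Clec1b (5.91 ± 3.22) followed. The ranges over libraries of each pair of neighbours in this order overlapped. The order was not the same in each group. In WT air Itga2b (928) stood above Rap1b (759), and Gp5 (15.4) below Ppbp (48.5) and Thbs1 (26.9). In WT air the mean per kilobase was 3810 for Pf4 and 224 for Mmrn1, and in Tet2-deficient air 1930 and 456.

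Likeness was measured as the root mean square distance between log2 profiles over the 16 libraries, each centred on its own mean, as a description. Among the 10 genes, Pf4 was nearest to Itga2b (0.399) and Clec1b (0.421), and Ppbp was nearest to Clec1b (0.44). Mmrn1 was nearest to Gp9 (0.436) and Selp (0.444). Gp5 had no near profile among them, its closest being Rap1b (1.037), and nor had Thbs1, whose closest was Itga2b (1.031). Among all other tested genes, the closest to Mmrn1 were Tek (0.195), the angiopoietin receptor of stem and endothelial cells, Grb10 (0.207) and Cavin1 (0.217). Closest to Selp were Elk1 (0.2), Mansc1 (0.206) and Csnk1g1 (0.214), and closest to Gp9 were Bysl (0.139), Kti12 (0.145) and Cpsf2 (0.146). Closest to Pf4 were Snhg15 (0.305), Fbxl12 (0.328) and Mrvi1 (0.341), and to Itga2b Galnt6 (0.158) and Tgif2 (0.161). Clec1b was nearest to B4galt7 (0.35), Zkscan14 (0.366) and Herpud1 (0.371), and Ppbp to Pde10a (0.364), Rab27b (0.405) and Hspa5 (0.433). Thbs1 was nearest to Fn1 (0.462), which encodes fibronectin, then Inpp5j (0.59) and Adam8 (0.615). Gp5 was nearest to Bloc1s4 (0.386), Inafm1 (0.39) and Tysnd1 (0.406), which like Gp5 had their lowest group mean in WT air (129.7, 62.7 and 333). Rap1b was nearest to Fam49b (0.265), Tmem251 (0.266) and Rab2a (0.27), which had their highest group mean in WT physioxia (3109, 1884 and 1152).

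Other genes of the lineage, from 5 lists of known roles without the 10 genes, were also split between higher and lower. All tested genes were split too, with 42.1% higher and 37.4% lower in air, and 35.9% and 33.6% in physioxia. The split is therefore not particular to genes of the lineage. Whether the split differed between roles was not tested. Without the 10 genes, the lists held 23 receptor and adhesion, 16 cargo, 22 signalling, 23 cytoskeleton and granule biogenesis and 20 transcription factor genes. Of these only 7, 6, 8, 8 and 8 were measured, so the counts leave out most listed genes. Of 7 measured receptors and adhesion molecules, 4 were higher and 3 lower in Tet2-deficient cells in air, and 3 and 3 in physioxia. Esam, a junctional adhesion molecule, was higher in both (0.97 ± 0.17 SE and 0.57 ± 0.17), as was Cd36, a thrombospondin receptor (2.12 ± 0.44 and 1.24 ± 0.44). The tetraspanins Cd63 (-0.68 ± 0.15 and -0.89 ± 0.15) and Cd9 (-0.60 ± 0.18 and -0.97 ± 0.18) were lower.

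Of 6 measured cargo genes, 1 was higher and 4 lower in each condition, with a median of -0.64 in air and -0.69 in physioxia. Timp3, a metalloproteinase inhibitor, was lower (-2.50 ± 0.26 in air and -2.08 ± 0.26 in physioxia), as were Srgn, the granule proteoglycan serglycin (-0.46 ± 0.12 and -0.75 ± 0.12), and F13a1, the factor XIII A chain (-0.83 ± 0.19 and -0.63 ± 0.19). Angpt1, which encodes angiopoietin 1, was higher (0.59 ± 0.14 and 0.48 ± 0.14). Of 8 signalling genes, 1 was higher and 6 lower in air, and 2 and 5 in physioxia. Gna13, a G protein alpha subunit, was lower (-0.92 ± 0.11 and -1.07 ± 0.11), as were Plek, the kinase substrate pleckstrin (-0.80 ± 0.17 and -0.82 ± 0.17), Rasgrp2, the exchange factor that loads Rap1 (-0.43 ± 0.13 and -0.60 ± 0.13), and Lcp2, an adaptor (-0.44 ± 0.10 and -0.36 ± 0.10).

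Of 8 cytoskeleton and granule biogenesis genes, 4 were higher and 2 lower in air, and 2 and 3 in physioxia. Parvb, an integrin-linked adaptor (2.50 ± 0.41 and 2.48 ± 0.41), and Myh10, a nonmuscle myosin (1.65 ± 0.36 and 2.14 ± 0.36), were higher. Tpm4, a tropomyosin (-1.39 ± 0.14 and -1.54 ± 0.14), and Rab27a, a granule-docking GTPase (-0.79 ± 0.13 and -0.82 ± 0.13), were lower. Of 8 transcription factors, 6 were higher and 1 lower in air, and 5 and 0 in physioxia. Gfi1b (1.38 ± 0.18 and 1.20 ± 0.18), Tal1 (2.33 ± 0.38 and 1.17 ± 0.38) and Gata1 (1.17 ± 0.26 and 0.92 ± 0.26), which are shared by the erythroid and megakaryocyte lineages, were higher in both conditions. Lmo2 was higher in air only (0.895 ± 0.285, limma adjusted p = 0.0119). Its means in physioxia were 8120 in Tet2-deficient and 8289 in WT cells. Between oxygen conditions in WT cells, 1 cargo gene (Tgfb1, 1.52 ± 0.43) and 1 transcription factor (Lmo2, 1.20 ± 0.29) of these 37 genes were higher in physioxia and 0 were lower. Tgfb1 was named after its values were seen. In Tet2-deficient cells 0 of the 37 passed by limma, and 1 had an unadjusted p under 0.05.

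**Figure D5:**
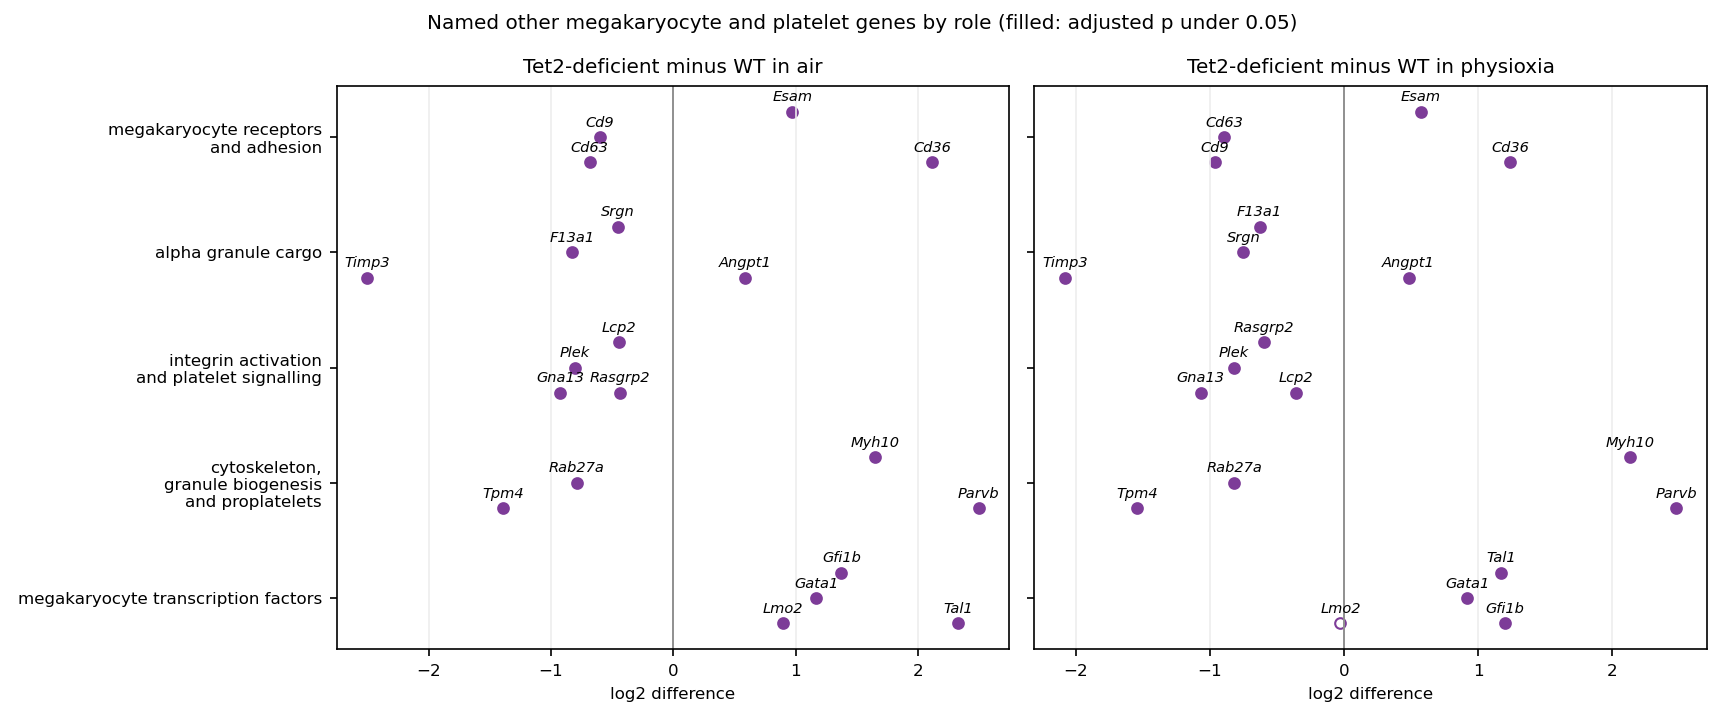
Log2 differences between Tet2-deficient and WT cells (horizontal axes) of the up to 4 other megakaryocyte and platelet genes named from each role list (vertical axis; height within a role has no meaning) in air and in physioxia; filled points passed an adjusted p under 0.05. Gfi1b, Tal1 and Gata1 lie right of 0, and Gna13, Plek, Rasgrp2 and Lcp2 lie left of 0, in both conditions. Lmo2 is a filled point in air only.

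Beside the monocyte, T cell and neutrophil lists above, marker lists of other cells also moved with genotype. For comparison, 42.1% of all tested genes were higher and 37.4% lower in Tet2-deficient cells in air, and 35.9% and 33.6% in physioxia. Of 14 erythroid markers 13 were higher in Tet2-deficient cells in air and 11 in physioxia, and 0 were lower. Their mean log2 level per library was 9.91 to 10.79 in WT air, 11.65 to 13.81 in Tet2-deficient air, 10.21 to 11.05 in WT physioxia and 11.62 to 13.61 in Tet2-deficient physioxia. Of 11 long-term stem cell markers 11 were higher in air and 10 in physioxia, at 7.7 to 7.84 in WT air, 8.77 to 9.14 in Tet2-deficient air, 7.56 to 8.06 in WT physioxia and 8.63 to 9.21 in Tet2-deficient physioxia. The ranges of both lists were apart between genotypes, as were those of Selp and Mmrn1. The same held for every other marker list described here. Groups also did not overlap for 70.6% of all tested genes in air and 57.6% in physioxia. Basophil and mast cell markers went the other way, with 6 of 8 lower and 1 higher in air and 7 of 8 lower in physioxia, at 10.78 to 11.52 in WT and 9.5 to 10.23 in Tet2-deficient libraries. Of 16 endothelial and stromal markers 3 were measured (Tek, Tie1 and Egfl7), of which 3 were higher in air and 2 in physioxia. Their levels were 9.32 to 9.69 in WT air, 10.08 to 10.39 in Tet2-deficient air, 9.51 to 9.64 in WT physioxia and 9.88 to 10.28 in Tet2-deficient physioxia. Endothelial cells also make P-selectin and multimerin 1, and the defining endothelial genes Cdh5, Kdr and Pecam1 were not analysed here. The part of any of these cell types in the levels of the 10 genes was not tested.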

How the data were processed

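The data are 16 bulk RNA libraries in 4 groups of 4. The authors deposited a signal: for each gene, its reads after division by the library's size factor. Per the submitters' processing notes, the tools were FastQC, cutadapt, STAR, HTSeq and DESeq2 and the build was GRCm38; versions are not given in the sources used here. Whole reads were recovered for 100.0% of values within 0.01 of a whole number. Symbols and positions came from GENCODE M21 (6278 of 6288 genes matched). How the table's genes were chosen is not given in the sources used here.

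A gene was tested where 4 or more libraries reached 10 normalized counts, which kept 6110 and dropped 178. Values were taken as log2 after adding a pseudocount of 1 and fitted in limma 3.58.1 under R 4.3.3 (trend on). The fit used a mean for each group over the 16 libraries together and two-sided tests, with Benjamini-Hochberg adjustment over the 6110 genes. Log2 differences on this scale understate the change of low genes, and errors are the SE of the fit, or the SD of 4 libraries where stated. The scripts were checked on simulated data. Alternatives were other pseudocounts and filters, quantile normalization, edgeR 4.0.16 and DESeq2 1.42.0 on the recovered reads, a replicate block, only the groups compared, an adjustment that takes all absent annotated genes as unchanged, and leaving out libraries.

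All 10 genes are named in every comparison. From each of 5 role lists up to 4 others with the smallest p are named, and for each gene the 3 tested genes with the nearest profile, of which 1 is not reported here. The 10 genes, the role and marker lists and the tests were chosen with earlier results of these data known.

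Column names give the same numbers 1 to 4 to air and physioxia libraries. Deviations of same-numbered WT air and physioxia libraries correlated at 0.162 to 0.332 and each went best with its own number, so the numbers pair the WT libraries. In Tet2-deficient cells they correlated at -0.275 to 0.322, and across genotypes at -0.118 to 0.116, so no pairing is shown there.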

Additional observations from a re-analysis of the deposited data

How the results depend on the processing

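Over 29 alternatives and 50 differences of the 10 genes, 1362 of 1435 values kept their side of the threshold, 59 no longer passed and 14 newly passed. Of the differences that passed, 0 changed direction, while some that did not pass did, such as Ppbp in air (-1.01 to 0.21) and Thbs1 between oxygen conditions in WT cells (-0.88 to 0.90). Counts of the 10 genes that passed were 7, 6, 2, 0 and 0 in air, in physioxia, between oxygen conditions in WT and in Tet2-deficient cells, and for the interaction. In air the count was 3 when absent annotated genes were taken as unchanged, 3 without Tet2-deficient air libraries 3 and 4, and 4 without WT air libraries 1 and 2. For oxygen in WT cells it was 1 with a pseudocount of 10, 1 with only the 2 groups compared, and 0 with absent genes taken as unchanged. It was also 0 without WT air libraries 1 and 2 and 0 without library 1 of both WT groups, and it ranged from 0 to 2 with each library left out in turn. The interaction count was 1 with DESeq2. The choices that left out several libraries were made after seeing the data, and the cause of these changes was not tested.

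When the fit had a replicate block, the counts were 7, 6, 2, 0 and 0, but Itga2b no longer passed in air (adjusted p = 0.054) and Thbs1 did (adjusted p = 0.0484). The block changed no other call of the 10 genes. For the genotype comparisons it gave libraries of the same number a shared effect across genotypes, where no pairing is shown. For the oxygen comparisons it paired same-numbered libraries within each genotype.

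Over all genes, calls in air went from 4858 to 2432 and in physioxia from 4243 to 2477 with absent genes taken as unchanged, and in air to 2760 without Tet2-deficient air libraries 3 and 4. In WT cells, calls between oxygen conditions went from 352 to 548 with DESeq2, 462 with a replicate block, 0 with absent genes taken as unchanged, 128 to 554 with each library left out in turn, and 0 without WT air libraries 1 and 2 or library 1 of both WT groups. In Tet2-deficient cells they went from 0 to 8 with DESeq2, 1 with a pseudocount of 10 or without Tet2-deficient air library 4, and 152 without Tet2-deficient air libraries 3 and 4. The interaction went from 0 to 11 with DESeq2 and 1 without WT air library 3. Quantile normalization moved the median of all genes in air by -0.12 and the split from 2575 higher and 2283 lower to 1984 and 2303. With a minimum normalized count of 50, Clec1b was not tested. Clec1b (8 reads at the least) and Gp5 (17) are limited by depth.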
